A study of Homo sapiens with 12 samples.

Results

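The glucocorticoid receptor NR3C1 occupied, in the human T-cell leukaemia line SUPT-1, 656 regions that met 3 conditions in the deposited peak lists. They were regions of the N642H line with prednisolone on chromosomes 1 to 22, X and Y, they overlapped by at least 1 bp an NR3C1 region of the WT line with prednisolone, and they overlapped no STAT5B region of either line before treatment. They are called the STAT5B-free shared regions here, with the reservation that the absence of STAT5B refers to the untreated lists alone. The 656 were 22.7% of the 2888 NR3C1 regions of the N642H line with prednisolone, and they overlapped 661 of the 995 NR3C1 regions of the WT line. The regions were chosen by the presence of a peak in both NR3C1 lists and its absence from both untreated STAT5B lists, so those 2 properties are descriptions and not findings.

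SUPT-1 is an established line of T-cell acute lymphoblastic leukaemia, and every library came from SUPT-1 cells that carried a doxycycline-inducible STAT5B construct, kept under puromycin and induced with doxycycline. The WT line overexpressed wild-type STAT5B and the N642H line overexpressed STAT5B N642H, a substitution known to activate STAT5B. Cells were untreated or were given prednisolone, a synthetic glucocorticoid, at 250 µg/ml for 16 hours. Chromatin immunoprecipitation and sequencing (ChIP-seq) with NR3C1 or STAT5B pulled down gave 8 libraries, 1 for each target, line and treatment, and 4 input libraries completed the 12 samples. Cells without doxycycline are not among the groups, so each comparison is between 2 kinds of overexpressing cells. The study's title places the work in the setting of steroid resistance. With 1 library a group there was no replicate, no test between conditions was made, and a difference between lists has no measure of its error.

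The glucocorticoid receptor is a ligand-activated transcription factor. It waits in the cytoplasm with chaperones, enters the nucleus when it binds a steroid, and acts on genes through short paired DNA elements that are often far from promoters. In lymphoid cells glucocorticoids arrest growth and cause cell death, which is the basis of their use against acute lymphoblastic leukaemia. STAT5B is the transcription factor that cytokine receptors such as the interleukin-7 receptor activate through JAK kinases, and it can meet the glucocorticoid receptor on chromatin.

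The sequences under the summits could be read only where a summit lay in a RefSeq promoter window, which runs from 250 bases before to 50 bases after a transcription start. That was so for 9 of the 656 regions. The stretches below are from RefSeq GRCh38.p14, 5′ to 3′ on the strand of the gene, at most 60 bases to either side of the summit and none past the transcription start. FAM13A had the strongest region of the 9, and COX17 was bound by NR3C1 also without prednisolone. WDR7 had its best match of letters, 6 of 8, centred at the summit, a number that most promoter windows reach. ERAP2 and LOC124903934 had the closest partial matches. Capitals mark the site near the summit that shares most letters with the glucocorticoid response element, searched as GNACANNNTGTNC, in which 8 letters are fixed and which reads the same on both strands.
FAM13A, minus strand, chr4:88823233-88823315: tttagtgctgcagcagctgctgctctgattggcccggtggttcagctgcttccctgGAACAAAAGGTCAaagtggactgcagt
COX17, minus strand, chr3:119677108-119677228: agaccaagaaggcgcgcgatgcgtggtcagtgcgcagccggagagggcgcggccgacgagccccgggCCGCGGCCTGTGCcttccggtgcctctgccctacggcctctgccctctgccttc
WDR7, plus strand, chr18:56651560-56651680: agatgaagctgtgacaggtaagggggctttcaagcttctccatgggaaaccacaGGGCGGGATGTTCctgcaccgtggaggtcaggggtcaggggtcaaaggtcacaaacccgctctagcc
LOC124903934, plus strand, chr17:16653702-16653822: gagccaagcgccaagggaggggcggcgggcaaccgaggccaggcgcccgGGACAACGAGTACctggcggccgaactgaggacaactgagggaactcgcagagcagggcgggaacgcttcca
ERAP2, plus strand, chr5:96876348-96876468: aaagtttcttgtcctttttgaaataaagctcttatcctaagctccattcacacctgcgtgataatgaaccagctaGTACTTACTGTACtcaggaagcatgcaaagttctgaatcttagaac

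The 9 summits lay in 11 promoter windows, since some windows overlap, and none of the 11 held the element with all 8 letters. Of all 34943 promoter windows 136 (0.389%) held it. In ERAP2, which encodes an aminopeptidase that trims peptides for antigen presentation, 7 of 8 letters matched at a site centred 21 bp from the summit. At LOC124903934 7 of 8 matched at a site centred 5 bp from the summit. As many letters matched somewhere in 8.16% of all promoter windows. In WDR7 and FAM13A 6 of 8 letters matched, centred 0 and 2 bp from the summit, but 61.3% of all windows reach that number. COX17 reached 5 of 8. With 9 regions the exact 95% interval for the share with the element runs from 0 to 33.6%, and the other 647 regions were not searched. The STAT pattern TTCNNNGAA, which also reads the same on both strands, was in no window of the 9 regions and in 7.66% of all windows.

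The regions differed widely in strength. Fold enrichment is the authors' ratio of ChIP pileup to local background at the summit, and −log10 q is their adjusted significance of each peak. Both rank regions within a list, and values of different lists side by side do not measure a change. In the N642H list the 656 regions ran from 2.93-fold to 118-fold with a median of 14.0-fold, beside a median of 8.26-fold over all 2888. In the WT list they ran from 3.83-fold to 73.8-fold with a median of 9.60-fold. The rule kept only regions with a peak in both lists, so the higher median is not independent of it. The pileup at the summit, recovered from the deposited values, had a median of 29 fragments in the N642H library and 20 in the WT library. Most values thus rest on few fragments, and the weakest regions on 11 and 10. The N642H fold was above the WT fold at 537 of 656 regions (81.9%). The same count was not made for the other shared regions, so it is not a result about the 656. The 231 shared regions that overlapped untreated STAT5B also had the higher median in the N642H list, 11.8-fold against 8.17-fold in the WT list.

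Regions shared by the lines held most of the strong end of the N642H list. Of its 10 strongest NR3C1 regions by −log10 q, 5 were STAT5B-free shared regions and 5 were among the 231 shared regions with untreated STAT5B. Of the next 90 the counts were 58 and 15, and of the last 888 they were 38 and 25. In the WT list, of which the STAT5B-free shared regions made 661 of 995, they supplied 7 of the first 10 and 74 of the next 90. A fold of at least 50 was reached by 47 regions in the N642H list, by 6 in the WT list, and by 5 in both. The order of the regions was similar in the lines, with a Pearson correlation of 0.786 between log2 folds and a Spearman correlation of 0.712 over 656 regions. The paired values share the choice of regions, the cell line and the peak caller, and no p is given. Summits lay close together, with a median shift of 20 bp, and 557 of 656 (84.9%) were within 50 bp of each other.

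**Figure D1:**
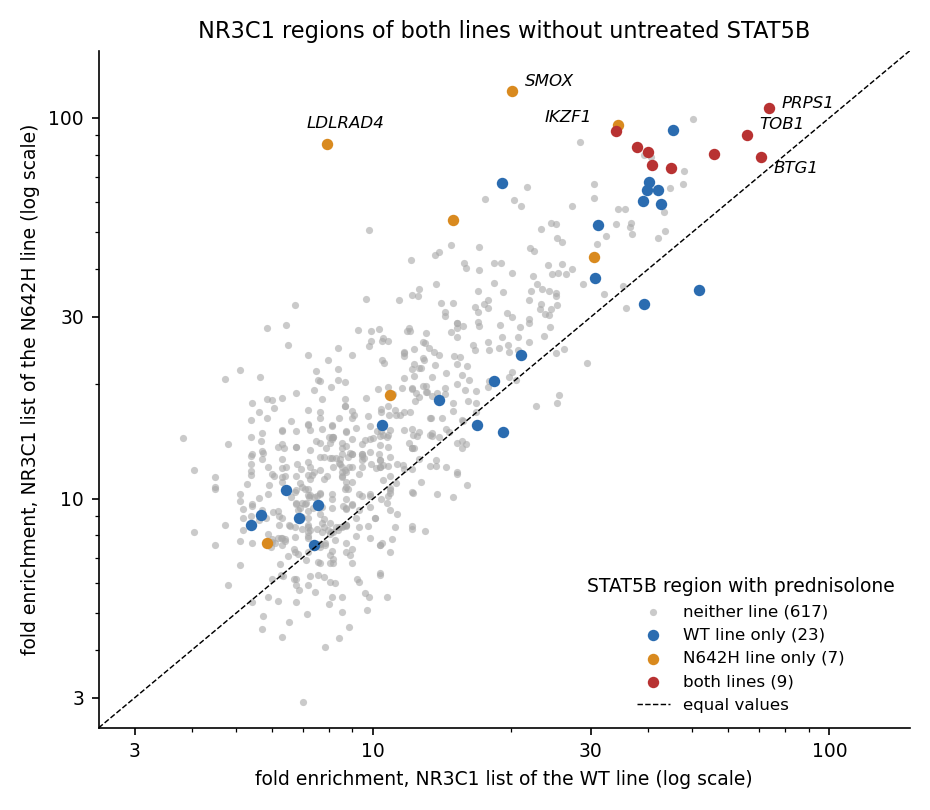
Fold enrichment of the 656 STAT5B-free shared regions in the NR3C1 list of the WT line (x axis) and of the N642H line (y axis), both with prednisolone and on log scales. Each point is 1 region, colours show a STAT5B region of the prednisolone-treated cells at it, and the dashed line marks equal values. The 9 regions at STAT5B in both lines (red) all lie between 73.9-fold and 106-fold in the N642H list, and SMOX and LDLRAD4 stand out above the line of equal values.

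The strongest region of all, at 118-fold in the N642H list and 20.2-fold in the WT list, lay 32524 bp from SMOX, which encodes spermine oxidase of polyamine breakdown. Its place was 1 of 2888 in the N642H list and 123 of 995 in the WT list. LDLRAD4, a membrane protein that restrains TGF-beta signalling, held a region inside the gene of 85.1-fold in the N642H list and 7.93-fold in the WT list, at places 23 and 654. Both regions had a lower place in the WT list, where SMOX was still above the upper quartile of the 656 (14.7-fold) and LDLRAD4 was below their median (9.60-fold).

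Regions strong in both lists came next. The region 109437 bp from BTG1, an antiproliferative gene of lymphocytes, had 79.1-fold in the N642H list and 70.8-fold in the WT list. TOB1, which belongs to the same antiproliferative family, had a region 41452 bp away with 90.1-fold and 65.8-fold. A region between PRPS1 and TSC22D3 had 106-fold in the N642H list and 73.8-fold, the highest of the 656, in the WT list. PRPS1 makes the sugar phosphate for nucleotide synthesis, and TSC22D3 encodes GILZ, a classical glucocorticoid-induced protein of T cells. Each of these had a place of 17 or better in the N642H list and of 5 or better in the WT list.

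Another region of this kind had the receptor's own gene as its nearest, at a distance far beyond the 20 kb used for linking. At chr5:143601885-143602601, 166684 bp from the NR3C1 gene and outside any protein-coding gene, the fold was 80.1 with 224 fragments in the N642H list and 55.9 with 128 fragments in the WT list. A weaker region of 18.4-fold stood beside it, and the 2 together spanned 143601885 to 143605797. No STAT5B-free shared region lay in NR3C1 or within 50 kb of it. The one nearest to the gene was a different region, at chr5:143181267-143181451, 96545 bp away with 15.1-fold in the N642H list. The nearest untreated STAT5B regions to the strong region were 196585 bp away in the WT line and 198058 bp away in the N642H line.

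IKZF1 encodes Ikaros, a zinc finger factor needed in lymphoid development, and its region inside the gene had 92.5-fold in the N642H list and 34.0-fold in the WT list. A region inside SPEF2, a gene of sperm tails, had 81.6-fold and 40.0-fold. The nearest available transcription start was that of IL7R, the interleukin-7 receptor chain, 95109 bp away. SOCS1, a feedback inhibitor of JAK kinases, had a region 30017 bp away with 95.5-fold and 34.4-fold. ZFP36L2, an RNA-binding protein that hastens mRNA decay, was the nearest gene of 2 regions, of 99.3-fold and 50.1-fold at a distance of 9864 bp and of 75.2-fold and 40.9-fold at 90811 bp. In each pair of folds the first is from the N642H list and the second from the WT list.

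The other strongest regions by the N642H list lay at HTR5A, a serotonin receptor gene (83.7-fold and 37.9-fold), and at KIF3C, a kinesin motor gene (73.9-fold and 45.1-fold). GNLY, which encodes the cytotoxic protein granulysin, had 86.2-fold and 28.4-fold. SRP14, a signal recognition particle gene, had 60.6-fold and 39.1-fold. GRAMD2B had 72.3-fold and 48.1-fold, CDK15 had 93.1-fold and 45.4-fold, and RCSD1 had 53.1-fold and 36.7-fold. Here too the N642H value comes before the WT value. The nearest gene is a label of position and was not shown to be the target.

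Of the 656 regions, 32 (4.88%, exact 95% interval 3.36 to 6.82) overlapped a STAT5B region of the WT line with prednisolone, and 16 (2.44%, 1.40 to 3.93) one of the N642H line. These intervals, like all below, are Clopper-Pearson intervals that cover counting error over regions and not the spread between cultures. Over all 2888 NR3C1 regions the shares were 9.04% and 7.76%. The rule did not use the prednisolone lists, but it removed regions with STAT5B before treatment, and the 4 STAT5B lists come from the same 2 lines. The 231 shared regions that did overlap untreated STAT5B had shares of 40.7% (34.3 to 47.3) and 21.2% (16.1 to 27.1). Counted for either line, STAT5B was at 39 of the 656 (5.95%, 4.26 to 8.04), against 107 of the 231 (46.3%, 39.8 to 53.0) and 13.3% of all 2888. The intervals of the 2 shared groups did not overlap, but untreated STAT5B at the same places is what split the groups, so the contrast is a description. The 1354 regions of the N642H NR3C1 list alone without untreated STAT5B had STAT5B in either line at 54 (3.99%, 3.01 to 5.17), an interval that overlapped that of the 656. Of those, 47 were in the N642H STAT5B list, or 4 once regions of high local background were left out. Line by line the 2 groups differed. In the WT line the 1354 had 7 (0.517%, 0.208 to 1.06), an interval below that of the 656. In the N642H line without high-background regions they had 4 of 1298 (0.308%, 0.0840 to 0.787), against 16 of 655 (2.44%, 1.40 to 3.94). Both groups without untreated STAT5B had lower shares than the 231, and no test was made.

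Those 39 regions were mostly strong ones. Among the 20 strongest of the 656 regions, 16 (80%, 56.3 to 94.3) had STAT5B with prednisolone in either line, 13 in the WT line, 12 in the N642H line and 9 in both. Among the 425 weakest it was 10 (2.35%, 1.13 to 4.28). The 39 had a median NR3C1 fold of 53.8 in the N642H list, and the other 617 had 13.6. At matched places of the N642H list the 2 groups were closest at the top. In places 1 to 30, 16 of 21 STAT5B-free shared regions (76.2%, 52.8 to 91.8) and 8 of 8 shared regions with untreated STAT5B (63.1 to 100) had STAT5B with prednisolone. In places 31 to 100 it was 6 of 42 (14.3%, 5.43 to 28.5) and 8 of 12 (66.7%, 34.9 to 90.1). In places 301 to 1000 it was 6 of 295 (2.03%, 0.750 to 4.37) and 42 of 98 (42.9%, 32.9 to 53.3). The share in the STAT5B-free regions was thus high at the strongest NR3C1 regions alone, while that of the other group was at least 41.9% in each range of places.

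**Figure D2:**
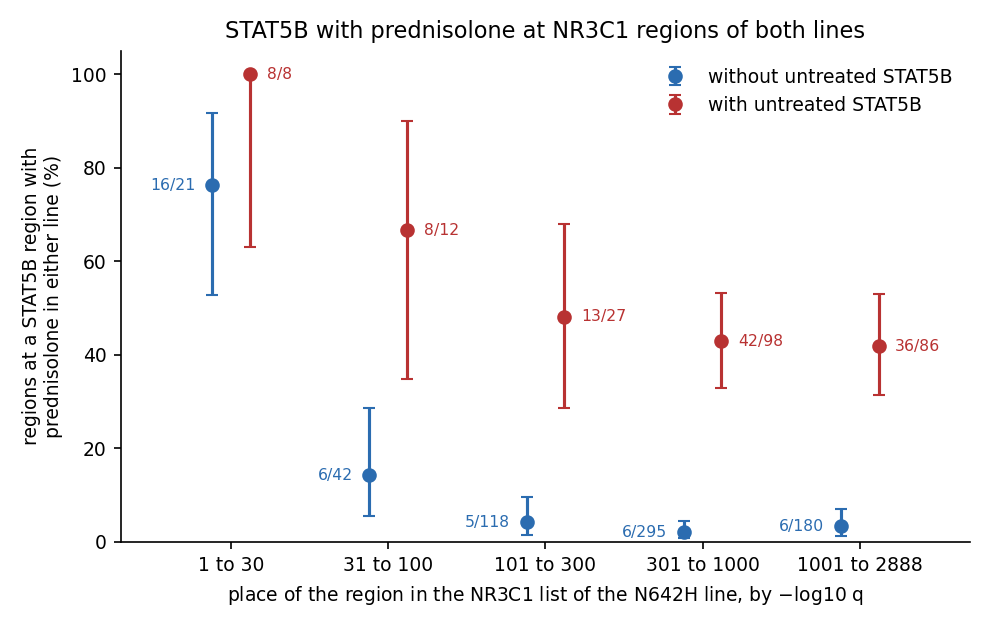
Share of NR3C1 regions of both lines that overlapped a STAT5B region of prednisolone-treated cells in either line (y axis, percent), by the place of the NR3C1 region in the N642H list (x axis). Points are shares, bars are exact 95% intervals over regions, and labels give counts for regions without (blue) and with (red) untreated STAT5B. The blue share is 76.2% in places 1 to 30 and at most 14.3% in every later range.

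All 9 regions at STAT5B in both treated lines held places 5 to 17 of the N642H NR3C1 list. They were the regions described above at TOB1, HTR5A, IKZF1, KIF3C, SPEF2, NR3C1, PRPS1 and BTG1 and the more distant of the 2 at ZFP36L2. At BTG1 the STAT5B fold was 14.4 in the WT list and 8.52 in the N642H list, where the NR3C1 folds were 70.8 and 79.1. At KIF3C it was 7.68 in the WT list and 12.3 in the N642H list. At NR3C1 it was 10.2 and 10.6, in that order. Within the STAT5B lists the medians over all regions were 7.20-fold in the WT line and 6.77-fold in the N642H line. None of the 9 lay within 1 kb of a gene end, and the median gap to the nearest untreated STAT5B region was 94777 bp, with the least, 1674 bp, at HTR5A.

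The other 7 of the 20 strongest regions with STAT5B after treatment had it in the list of 1 line. SMOX, SOCS1 and LDLRAD4 had STAT5B in the N642H line alone, at 6.74-fold, 18.5-fold and 8.23-fold. FKBP5, DUSP1, CDK15 and SRP14 had it in the WT line alone, at 8.68-fold, 4.28-fold, 5.75-fold and 6.84-fold. Whether a STAT5B peak just missed the other list cannot be seen from peak lists. The STAT5B-free shared regions accounted for 32 of 766 treated STAT5B regions in the WT line (4.18%) and for 17 of 446 in the N642H line (3.81%), a small part of either list.

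NR3C1 had 2 regions in each untreated list on chromosomes 1 to 22, X and Y, and all of these lay at STAT5B-free shared regions. The untreated WT list held a further region on another sequence, which brought it to 3 and was not used here. They were the same 2 places in both lines. At COX17, which encodes a copper chaperone of cytochrome oxidase and whose sequence is printed above, the fold was 16.7 in the untreated WT list and 16.9 in the treated WT list, and 23.0 and 29.0 in the untreated and treated N642H lists. At PGAM1, which encodes a glycolytic mutase, it was 18.0 and 23.2 in the WT lists and 24.2 and 31.4 in the N642H lists, again untreated before treated. These 2 regions were bound before and after treatment, and the other 654 were listed after treatment alone. Neither had a STAT5B region in any of the 4 lists.

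Most of the STAT5B-free shared regions were far from the ends of genes. A protein-coding gene began or ended within 1 kb of the summit at 39 regions (5.95%, 4.26 to 8.04), against 11.8% of all 2888, 16.0% (11.5 to 21.4) of the 231 with untreated STAT5B and 26.3% (22.9 to 29.8) of the 647 regions with untreated STAT5B that were in the N642H NR3C1 list alone. Where RefSeq gave a start with its strand, 22 of 622 summits (3.54%, 2.23 to 5.31) lay within 1 kb of a transcription start, against 11.2% over all regions. Inside a gene lay 341 regions (52.0%, 48.1 to 55.9), close to the 50.7% of all. More than 100 kb from any protein-coding gene lay 118 (18.0%, 15.1 to 21.1), beside 17.6% of all. The 1354 regions without untreated STAT5B that were in the N642H NR3C1 list alone had a share of 7.09% (5.78 to 8.59) at gene ends, and its interval overlapped that of the STAT5B-free shared regions. The low share at gene ends was thus seen in both groups without untreated STAT5B. For transcription starts the 2 groups differed. Within 1 kb of an available start the regions of the N642H list alone had 94 of 1310 (7.18%, 5.84 to 8.71). That interval was above that of the STAT5B-free shared regions, and the same limit on starts holds for both. No test was made. Exons and introns were not analysed here.

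The rule removed regions that overlap untreated STAT5B, so the distance to it is a description. The median gap to the nearest untreated STAT5B region of either line was 99924.5 bp, and 328 of the 656 (50%) were over 100 kb away, beside 36.0% of all 2888. A gap of 5 kb or less was found at 50 (7.62%), beside 36.3% of all, and of 500 bp or less at 7 (1.07%). The 1354 regions of the N642H list alone without untreated STAT5B were alike, with 52.7% over 100 kb away, 8.86% within 5 kb and a median of 115828 bp. ITFG2 had the smallest gap, 51 bp, and the region at TSHR was left out of the set by an overlap of 39 bp. Between the lines the smallest overlap was 10 bp at MVB12B, and the nearest region left out stood 156 bp from a WT region, at SMARCD2. The weakest region by −log10 q in the N642H list was at SMNDC1, with 4.30-fold and −log10 q of 3.22, and its fold in the WT list was 8.41.

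**Figure D3:**
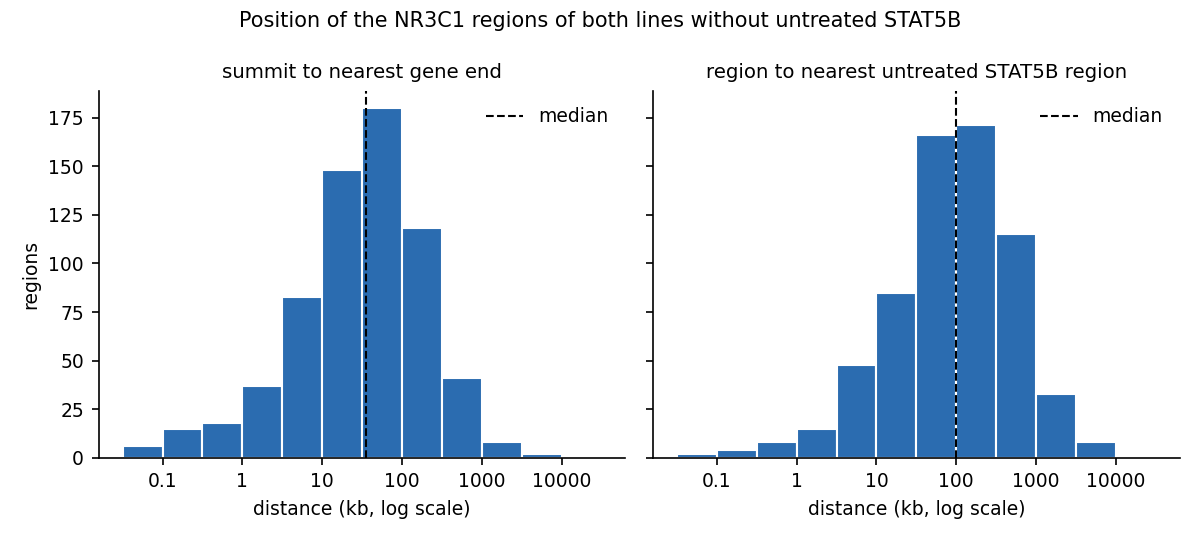
Number of STAT5B-free shared regions (y axis) by distance from the summit to the nearest end of a protein-coding gene (left) and from the region to the nearest untreated STAT5B region of either line (right), in kb on a log scale. Dashed lines mark the medians, 35831 bp and 99924.5 bp. Few regions lie under 1 kb in either panel.

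Of the 19355 protein-coding genes, 534 (2.76%) had a STAT5B-free shared region in them or within 20 kb. Of these, 494 had 1 region, 36 had 2 and 4 had 3. Absence of STAT5B from the region did not mean absence from the gene, since 280 of the 534 (52.4%, 48.1 to 56.7) also had an untreated STAT5B region within 20 kb, beside 32.6% of all protein-coding genes. The 4 genes with 3 regions were FHIT, PPARG, TG and TSC22D3. PPARG encodes a fatty-acid-sensing nuclear receptor, and its strongest region, inside the gene, had 17.8-fold in the N642H list and 25.3-fold in the WT list. FHIT is a very long gene at a fragile site, and its strongest region had 27.5-fold and 12.1-fold. TG encodes thyroglobulin and overlaps the span of another gene, SLA, to which the same region is nearest. Gene lengths were not matched in these counts.

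Among 30 genes known to respond to glucocorticoids, 14 (46.7%) were near a STAT5B-free shared region and 10 (33.3%) near a shared region with untreated STAT5B, 4 of them near both kinds. Over all genes those shares were 2.76% and 1.17%. The list was chosen with earlier results of these data known, so the difference is a description and not support. FKBP5, the immunophilin that dampens the receptor's own hormone binding, had 59.2-fold in the N642H list and 42.7-fold in the WT list at a region inside the gene. A separate region over the upper end of its span, which did overlap untreated STAT5B, had 106-fold in the N642H list. DUSP1, a phosphatase that turns off MAP kinases, had a region 1342 bp from the gene with 67.4-fold and 19.2-fold. DDIT4, an inhibitor of mTOR signalling, had 61.4-fold and 30.4-fold at 18645 bp. IL7R had a second region 2326 bp from its start with 53.8-fold and 14.9-fold. These 4 genes and ZFP36L2 were the response genes with the strongest regions by −log10 q.

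TSC22D3 had 5 STAT5B-free shared regions inside it or within 50 kb, the fullest array of any of the 8 genes followed through all lists. From lower to higher coordinates on chromosome X the folds in the N642H list were 106, 48.3, 7.64, 10.7 and 33.2, the last of them inside the gene. In the WT list they were 73.8, 42.1, 8.71, 8.71 and 11.4 in the same order. The outermost region, 39001 bp from the gene, was the strongest in both lists. No untreated STAT5B region lay within 50 kb of TSC22D3, and the nearest were 6322151 bp away in the WT line and 3556367 bp away in the N642H line. With prednisolone STAT5B appeared at the outermost region, at 7.78-fold in the WT line and 8.69-fold in the N642H line.

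Of 20 BCL2-family genes 1 was near a shared region with untreated STAT5B (5%, beside 1.17% of all genes). Near a STAT5B-free shared region was also 1 (5%, beside 2.76% of all genes). It was BCL2L11, the gene of BIM, a protein that promotes apoptosis. Its region inside the gene had 26.4-fold with 73 fragments in the N642H list and 10.5-fold with 25 fragments in the WT list. No such region lay within 50 kb of BCL2 or BCL2L1, which encode the survival proteins BCL2 and BCL-XL. NR3C1 regions inside BCL2L1 numbered 3 in the N642H list and 1 in the WT list. That of the WT list was at a region that overlapped untreated STAT5B. BCL2 had 5 NR3C1 regions within 50 kb in the N642H list and none in the WT list. KLF9, a glucocorticoid-induced zinc finger gene, had 1 shared region, 4607 bp away, with untreated STAT5B, and PER1, a clock gene, had no NR3C1 region within 50 kb in either list.

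Metabolic and signalling lists had more genes near these regions than the BCL2 family, but they share genes with the list of response genes. Of 25 genes of PI3K-AKT signalling and energy metabolism 7 (28%, beside 2.76% of all genes) were near a STAT5B-free shared region. Near a shared region with untreated STAT5B was 1. Of the 7, DDIT4, PIK3IP1, SESN1 and GLUL were already counted among the response genes. PFKFB2, which sets the level of a glycolysis activator, had 56.6-fold in the N642H list and 43.4-fold in the WT list. PIK3R1, the regulatory subunit of PI3 kinase, had 44.4-fold and 13.9-fold. PIK3IP1, a membrane inhibitor of that kinase, had 31.0-fold and 14.3-fold, and MTOR had 24.7-fold and 26.2-fold. The regions of these 4 genes lay inside the gene. DDIT4, SESN1 and GLUL made up the rest, and SESN1 and GLUL were weaker at 13.4-fold and 9.98-fold in the N642H list.

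Of 25 genes of JAK-STAT feedback and cytokine receptors 5 (20%, beside 2.76% of all genes) were near a STAT5B-free shared region. Near a shared region with untreated STAT5B was 1 (4%, beside 1.17% of all genes). JAK1 had 2 such regions, the stronger at 17.5-fold in the N642H list and 8.68-fold in the WT list. STAT5B and STAT5A are neighbours and were counted through the same region, within the STAT5B gene, which had 20.5-fold in both lists. SOCS1 and IL7R, both already counted among the response genes, completed the 5. The SOCS1 region had 48.4-fold in the N642H list and 25.3-fold in the WT list at 16638 bp, nearer than the stronger region named above.

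T-lineage genes were near these regions as well. Of 30 T-lineage transcription factors 4 (13.3%, beside 2.76% of all genes) were near a STAT5B-free shared region and none near a shared region with untreated STAT5B. All 4 genes nonetheless had an untreated STAT5B region within 20 kb, as did 280 of the 534 genes near any STAT5B-free shared region. Besides IKZF1 these were TOX, a regulator of T-cell development (50.8-fold and 9.79-fold), IKZF3, the Ikaros relative Aiolos (21.9-fold and 12.2-fold), and TCF7, which encodes the T-cell factor TCF1 (7.64-fold and 5.42-fold). Of 30 genes of T-cell surface and homing 4 (13.3%, beside 1.17% of all genes) were near a shared region with untreated STAT5B. Near a STAT5B-free shared region were 7 (23.3%, beside 2.76% of all genes). Among the 7 were CD7 (58.8-fold and 27.3-fold), PTPRC, which encodes CD45 (28.2-fold and 24.4-fold), CD69 (22.8-fold and 29.4-fold) and RAG2 of antigen-receptor recombination (23.1-fold and 10.5-fold). CCR9, CXCR4 and CD2 had weaker regions, of 8.28-fold to 9.32-fold in the N642H list, and CXCR4 was already counted among the response genes. In these pairs the N642H value comes before the WT value.

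The remaining lists had between 1 and 3 genes near these regions, shares of 5% to 15% beside 2.76% of all protein-coding genes. Near a shared region with untreated STAT5B they had 1, 0, 1 and 2 genes, in the order given here. NR3C1 with its chaperones and cofactors had 3 of 20 genes, FKBP5, FKBP4 and HSPA8, of which the last 2 had 7.57-fold and 14.6-fold in the N642H list. NF-kappaB pathway genes had 2 of 20, NFKBIA, the inhibitor that holds the factor in the cytoplasm (33.4-fold and 9.64-fold), and MAP3K14 (8.49-fold and 8.71-fold). MAP kinase and RAS feedback genes had 2 of 20, DUSP1 and RASA1 (28.8-fold and 15.2-fold). Antiproliferative and cell-cycle genes had 1 of 20, CDK6 (12.4-fold and 11.3-fold), since BTG1 and TOB1 were more than 20 kb from their regions. FKBP5, NFKBIA and DUSP1 were already counted among the response genes. No list was tested, and the counts describe 1 library a line.

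**Figure D4:**
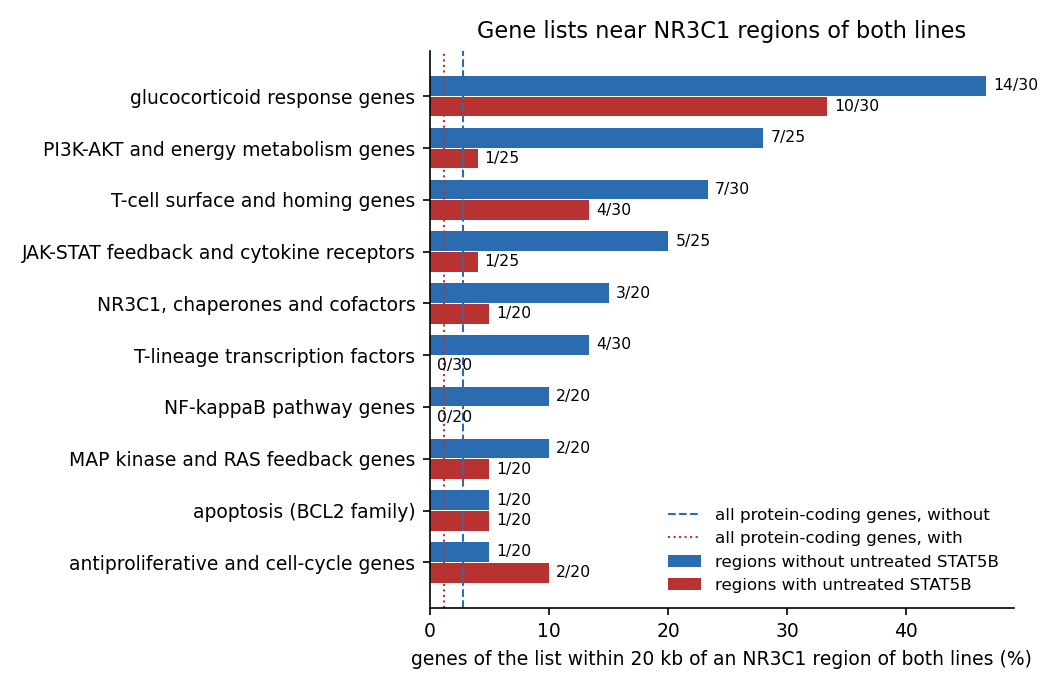
Share of the genes of each list that had an NR3C1 region of both lines in them or within 20 kb (x axis, percent), for regions without (blue) and with (red) untreated STAT5B, with counts beside the bars. Vertical lines mark all 19355 protein-coding genes. Glucocorticoid response genes reach 14 of 30 for blue and 10 of 30 for red, and T-lineage transcription factors 4 of 30 and 0 of 30. These 4 genes all had an untreated STAT5B region within 20 kb. The lists share genes and were chosen with earlier results of these data known.

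Few of these regions stood close together. Within 20 kb of each other 58 regions formed 29 pairs, and 598 stood alone. Pairs with a strong region were those at SOCS1, TOB1, ZFP36L2, NR3C1, PRPS1 and SRP14, in which the weaker partner had between 8.17-fold and 48.4-fold in the N642H list. Every chromosome but Y, which had no NR3C1 region of the N642H list, held some. They ran from 8 of 54 NR3C1 regions on chromosome 20 to 61 of 298 on chromosome 1 and 61 of 305 on chromosome 2. Chromosome X held 19 of these regions among its 73 NR3C1 regions (26.0%), near the 22.7% over all chromosomes. It held no shared region with untreated STAT5B. Local background was high, at least 10 times the floor of the library, at 1 of the 656 regions, at AFAP1, and at 58 of all 2888.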

How the data were processed

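NR3C1 and STAT5B ChIP-seq peaks of SUPT-1 cells were analysed as 8 lists, 1 a library, and the 4 inputs are not analysed here on their own. Per the submitters' processing notes BWA, MACS2 and deepTools were used with hg38, with versions not given in the sources used here. The authors deposited for each peak a score (10 times −log10 q, per the file values), a fold (a ratio of pileup to local background), −log10 p, −log10 q and the summit offset. In the deposited lists every −log10 q was at least 2. No p-value was recomputed. Summit fragments were solved from fold and −log10 p under a Poisson model with a pseudocount of 1, which was checked on simulated data. Total read depth is not in the lists.

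The regions and the gene lists were chosen with earlier results of these data known, so no list supports a direction by itself. Regions counted as shared when they overlapped by 1 bp or more, on chromosomes 1 to 22, X and Y. Gene spans and promoter windows came from RefSeq GRCh38.p14 (19355 protein-coding genes, of which 15482 had a start with a strand, none of them on chromosome 8). Genes were linked within 20 kb of a summit. No genome sequence was used, so the planned search for response elements within 150 bp of a summit covered promoter windows alone. Shares have exact Clopper-Pearson 95% intervals. Named genes followed a rule: nearest gene of the 20 strongest regions by the N642H list and 10 by the WT list, up to 6 linked genes a list, genes with most regions, 8 followed genes, regions at STAT5B in both treated lines, and edges of the rule. PGAM1, COX17, AFAP1, FAM13A, WDR7, ERAP2 and LOC124903934, and list genes beyond the first 6, were named after their values were seen. Alternatives changed the overlap, the STAT5B lists, thresholds, list length and windows, and 2 of them (transcription starts alone, and leaving out high-background regions) were chosen after seeing the data. Python 3.11.15, numpy 2.4.6, pandas 2.3.3, scipy 1.17.1 and matplotlib 3.10.9 were used.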

Additional observations from a re-analysis of the deposited data

How the results depend on the processing

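Over 18 alternative settings the 6 main results gave 72 values, of which 69 stayed within the interval of the main value (for shares) or within 1.5 times of it (for counts). The number of regions ran from 476, with the N642H list cut to the length of the WT list, to 740, with the untreated WT STAT5B list alone. The share at STAT5B with prednisolone ran from 3.97% to 5.81% in the WT line and from 2.38% to 3.38% in the N642H line. The share at a gene end was 15.5% with a window of 5 kb and 3.54% with transcription starts alone, and otherwise 5.39% to 6.48%. Response genes near a region numbered 7 of 30 when the summit had to lie in the gene span, and otherwise 11 to 17. The response element was found in 0 of the promoter windows searched under each setting. No paired analysis was possible because each group had 1 library. The regions had a median of 29 fragments at the summit in the N642H library and 20 in the WT library. Total depth is not in the lists, and its part in which regions were listed was not tested.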

Other observations

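Of the annotated microRNA hairpins, 14 lay within 20 kb of the summit of a STAT5B-free shared region, and none overlapped one. The share of all hairpins, and the count near all NR3C1 regions, are not given here. The 14 thus has no comparison and is not a result about these regions. The strongest of these regions were those near MIR5190, 3838 bp away within LDLRAD4 (85.1-fold in the N642H list and 7.93-fold in the WT list), and MIR5006, 4788 bp away by VWA8 (67.7-fold and 40.3-fold). The hairpin nearest to a summit was MIR4530, 78 bp away beside ZFP36, where NR3C1 had 8.40-fold and 7.78-fold. These regions were chosen after their values were seen, and no microRNA was measured.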
